A study of Homo sapiens with 9 samples.

Results

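Among the RNAs captured by Chrom-seq in HEK293T cells, 9 genes that cells switch on in response to interferon or to foreign nucleic acid were examined. They were ISG15, IFI6, IFIT1, IFIT2, IFIT3, IFIT5, OAS1, MX1 and IRF9, taken by gene name from the 57820 genes of the count table, and all 9 were found there. HEK293T is a long-established cell line derived from human embryonic kidney. Chrom-seq places the peroxidase APEX2 next to a chromatin mark, labels nearby RNA with biotin and captures the labeled RNA on streptavidin beads. There were 9 libraries in 3 groups of 3 replicates. In every group the cells were transfected with a pair of plasmids. One encoded an antibody fragment (scFv) fused to APEX2 and, after a P2A peptide, EGFP, under a chicken β-actin promoter. The other encoded GCN4 (SunTag) epitopes followed by P2A and mCherry, under a CMV promoter. For the CBX1 group the epitopes were joined to the CBX1 chromodomain, a reader of H3K9me3. For the CBX1_W42A group this domain had W42A, a change to a tryptophan of the pocket that holds the methylated lysine. For the Control group the epitopes carried no reader. The labels of all 9 libraries also carry NLS, a term the study's methods do not explain. All 3 groups were grown for 48 h after transfection, given 500 µM biotin-aniline for 30 min at 5% CO2, and exposed to 1 mM hydrogen peroxide for 1 min. Captured polyadenylated RNA was sequenced from random primers. Each group therefore held foreign DNA, and libraries from untransfected cells were not analysed here.

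Interferons are secreted proteins made by cells that sense foreign DNA or RNA. Type I interferon binds a receptor whose kinases JAK1 and TYK2 activate signal transducers such as STAT2, which join IRF9 to form the factor ISGF3. ISGF3 binds the interferon-stimulated response element (ISRE) in the promoters of its target genes. The gamma-activated sequence (GAS) is the element of the response to interferon gamma. The induced proteins block viral RNA and protein at several steps. HEK293T cells are known for a weak response to cytosolic DNA.

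An ISRE core was common to most of the promoters of these genes. Promoters from 250 bases before to 50 bases after the start were matched by symbol in the RefSeq table of build GRCh38.p14, which gave 11 promoters for 8 of the 9 genes, IFIT2 being the one without an entry. The ISRE core was searched as GAAANNGAA on both strands, with overlapping matches allowed. It was found in 8 of these 11 promoters and in 6 of the 8 genes, against 8.11% of all 35116 promoters in the table. The GAS motif, TTCNNNGAA, was found in 3 of the 11, those of OAS1, IRF9 and one promoter of MX1, against 7.66% of all promoters. For each gene with an ISRE core, a 29-base stretch is shown with 1 match in capitals, on the strand of the gene, so that the element can be seen beside the values that follow. In IFIT3, IFIT1 and IFIT5 the match reads on the opposite strand, as TTCNNTTTC.
ISG15, chr1:1013386-1013414, plus strand: aagggaaaccGAAACTGAAgccaaatttg
IFI6, chr1:27672267-27672295, minus strand: gcagagtgcaGAAATAGAAactccgacag
IFIT3, chr10:89332469-89332497, plus strand: ttccatcagtTTCACTTTCctttcccctt
IFIT1, chr10:89392511-89392539, plus strand: actttcccctTTCGGTTTCcctaggtttc
IFIT5, chr10:89414555-89414583, plus strand: tttcttaagtTTCAGTTTCtgagcgctcg
MX1, chr21:41420559-41420587, plus strand: gagcagaaatGAAACCGAAactgaattgt
Relative to the transcription start of the promoter it was taken from, the first capital lay at base −101 in ISG15, −93 in IFI6, −50 in IFIT3, −102 in IFIT1, −3 in IFIT5 and 11 in MX1. IFIT3 and MX1 have more than 1 promoter in the table, and the one shown for IFIT3 belongs to its downstream start. In OAS1 and IRF9 these letters were not in the window. A match describes the sequence, and binding of ISGF3 was not measured.

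The libraries held from 8379542 to 11082852 counts. Values are given as CPM, counts per 1000000 of a library size scaled by TMM factors, which ranged from 0.943 to 1.04. Each comparison used the 6 libraries of its groups in the quasi-likelihood test of edgeR, with Benjamini-Hochberg adjusted p-values over all genes whose counts summed to more than 18. To be called enriched or depleted, an RNA needed both an adjusted p under 0.05 and a log2 fold change of 0.75 or more in that direction. The study calls the replicates independent, but the labels do not say that they came from separate cultures, so p-values measure the spread between these libraries, which may be technical. The CBX1_W42A samples were registered under numbers apart from those of Control and CBX1. The labels do not say whether the 3 groups were prepared together. All 6 markers of the HEK293T line had counts, led by VIM with 518.9 CPM on average. Of 6 blood cell markers CD3E and HBB were at 0 and PTPRC had 3 counts in all, while CD14 stood at 2.66 CPM. The summed level of the line markers was 974–1208 CPM in the Control libraries, 867–1065 CPM with CBX1 and 913–1092 CPM with CBX1_W42A. That of the blood cell markers was 5.09–7.01 CPM, 4.74–5.77 CPM and 5.37–7.004 CPM.

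IRF9 and OAS1 were too low to judge, and the other 7 genes were tested in all 3 comparisons. IRF9, the DNA-binding subunit of ISGF3, had 0 counts in each of the 9 libraries. In hg19 it lies at chr14:24630262-24635774 on the plus strand, wholly inside ENSG00000259529, a gene of the same strand that also overlaps RNF31. Of all 57820 genes, 7910 lie inside another gene of their strand, and 0 of these 7910 had a count in any library. The zero of IRF9 therefore does not give its level. Its host had 5 to 30 counts per library, 155 in all, with 7.59% of its span free of other genes of the strand, so it does not stand in for IRF9 either. The host was not called in any comparison, with log2 fold changes against Control of 0.56 with CBX1 and −0.11 with CBX1_W42A, and of 0.64 between the readers. In the reference transcripts 15.4% of the 100-base stretches of IRF9 also occur in that host.

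**Figure D1:**
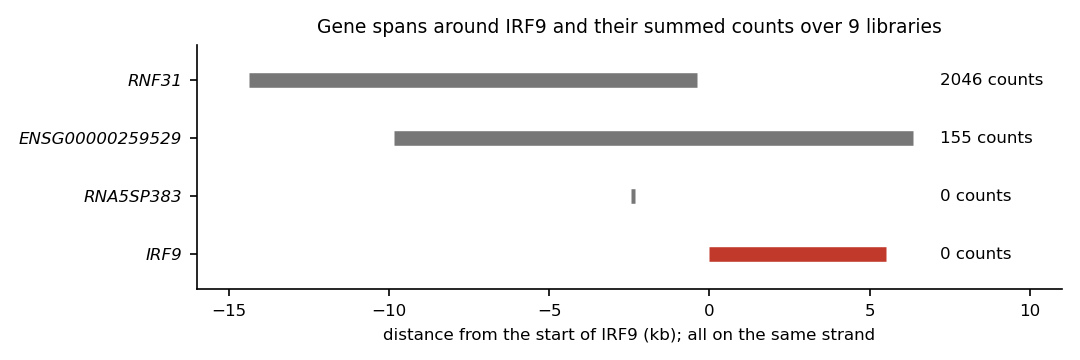
Spans of the 4 same-strand genes around IRF9 in hg19, by distance in kb from the start of IRF9, with the count of each gene summed over the 9 libraries at the right. IRF9 (red) lies inside ENSG00000259529 and has 0 counts, while RNF31, which reaches outside that gene, has 2046.

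OAS1 makes the short oligoadenylates that switch on RNase L. It lies at chr12:113344582-113369990 on the plus strand and is clear of other genes of its strand. It had 3, 0 and 2 counts in the Control replicates, 1, 0 and 3 with CBX1 and 0, 0 and 1 with CBX1_W42A. These 10 counts left it below the filter in every comparison, and the 3 groups overlapped. A library without a count still allows up to 3 counts, or 0.273 to 0.364 CPM depending on the library, which covers every value of OAS1. A limit of this kind covers counting error only.

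The measured members spanned a wide range of level per length, given as CPM per kb of exon of the canonical transcript. In the Control libraries ISG15 had 14.3 ± 1.40 CPM per kb (SD, n = 3) and IFI6 had 13.8 ± 1.75 CPM per kb (SD, n = 3). These neighbours did not differ beyond their spread. IFIT5 followed with 6.07 ± 0.767 CPM per kb (SD, n = 3) and IFIT1 with 1.499 ± 0.0711 CPM per kb (SD, n = 3), each below the gene before it by more than the spread. IFIT3 with 0.732 ± 0.323, MX1 with 0.726 ± 0.203 and IFIT2 with 0.492 ± 0.104 CPM per kb (SD, n = 3 each) did not differ beyond their spread. OAS1 stood last with 0.109 ± 0.0959 CPM per kb (SD, n = 3). Over all 9 libraries, ISG15 and IFI6 lay above 66.7% and 64.5% of the protein-coding genes tested, and IFIT5 above 40.8%. IFIT1 lay above 17.6%, IFIT3 above 10.9%, MX1 above 10.8% and IFIT2 above 7.02% of them. The median of those genes was 7.91 CPM per kb. With CBX1_W42A the ranges of IFIT1 and MX1 met, at 0.848 ± 0.378 and 0.593 ± 0.0811 CPM per kb (SD, n = 3 each). Reads in introns were counted as well, since the length listed for every gene equals its span, so a level per exon length is approximate.

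**Figure D2:**
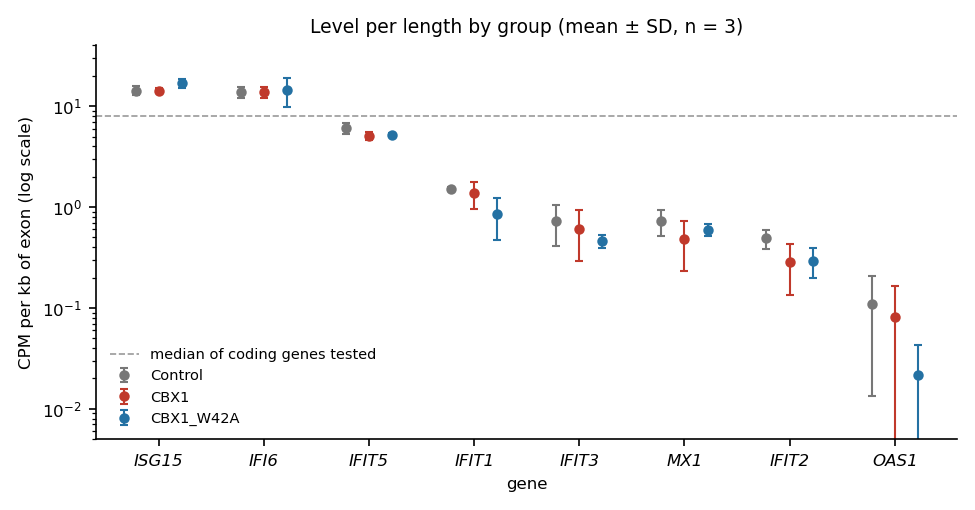
Level of 8 genes in CPM per kb of exon (log axis) by group, as mean ± SD of 3 libraries, with the median of the protein-coding genes tested, 7.91 CPM per kb, as a dashed line. ISG15 and IFI6 lie above the line and the others below it. IRF9, at 0 counts, is left out, and the lower bars of OAS1, where the SD exceeds the mean, run off the axis.

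In CBX1 against Control, 0 of the 7 genes tested were enriched or depleted. Of all 18837 genes tested, 7.06% were enriched and 0.340% were depleted. No member reached an adjusted p below 0.05 at any fold change, which 20.1% of all genes did. At an unadjusted p below 0.05 the count was also 0 of 7, against 34.2% of all genes, and DESeq2 called 0 of the 7. Log2 fold changes of the 7 had a median of −0.22, with 2 positive and 5 negative, and those of all genes tested had one of 0.03. In 1 of the 7, IFIT5, the groups did not overlap, which held for 38.0% of all genes.

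In CBX1_W42A against Control, 0 of the 7 were enriched or depleted, as were 0.974% and 0.0214% of the 18680 genes tested. No member reached an adjusted p below 0.05, against 2.62% of all genes, and DESeq2 called 0 of the 7. At an unadjusted p below 0.05 the count was 1 of 7, IFIT1, against 19.3% of all genes. The median log2 fold change was −0.28 in the 7 genes and 0.01 in all genes, and again 2 were positive and 5 negative. In 2 of the 7, IFIT1 and IFIT5, the groups did not overlap, which held for 24.6% of all genes. This comparison and the one before it share the 3 Control libraries, so their values are not independent.

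In CBX1 against CBX1_W42A, 0 of the 7 were enriched or depleted, as were 0.795% and 0.201% of the 19360 genes tested. Adjusted p fell below 0.05 for 0 of the 7 and for 2.24% of all genes, and DESeq2 called 0 of the 7. At an unadjusted p below 0.05 the count was 1 of 7, IFIT1, against 16.6% of all genes. The 7 genes had a median log2 fold change of −0.06 and all genes one of −0.00. ISG15 was the 1 gene of the 7 whose groups did not overlap, which held for 21.3% of all genes.

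**Figure D3:**
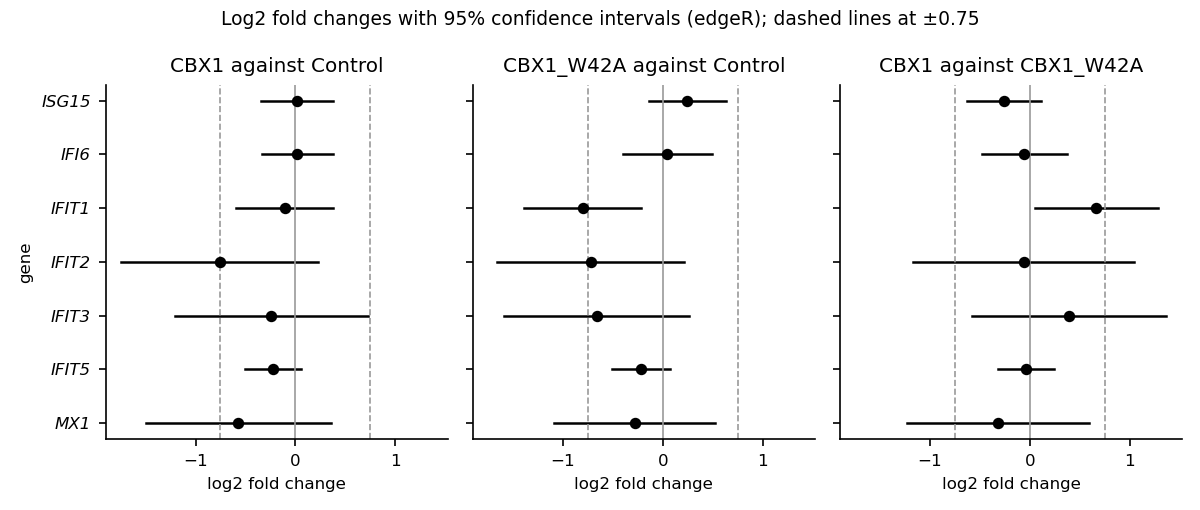
Log2 fold changes (points) and 95% confidence intervals (lines) of the 7 genes tested, from edgeR's quasi-likelihood fit, in the 3 comparisons, with dashed lines at −0.75 and 0.75. ISG15, IFI6 and IFIT5 keep within the dashed lines in all 3 panels, and the widest intervals are those of IFIT2, IFIT3 and MX1.

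ISG15 is a ubiquitin-like protein that is attached to other proteins and also secreted. Its gene lies at chr1:948803-949920 on the plus strand. Control replicates 1, 2 and 3 had 10.1, 8.70 and 8.49 CPM. The CBX1 replicates had 8.45, 9.32 and 9.37 CPM, and the CBX1_W42A replicates had 10.3, 10.1 and 12.2 CPM. All 3 CBX1_W42A libraries lay above all 3 CBX1 libraries, while Control overlapped both. The log2 fold change was 0.01 for CBX1 against Control (95% interval −0.35 to 0.37) and 0.25 for CBX1_W42A against Control (−0.13 to 0.63). For CBX1 against CBX1_W42A it was −0.26 (−0.63 to 0.11, adjusted p = 0.492 in edgeR). All 3 intervals excluded a log2 fold change of 0.75 in either direction.

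IFI6, a small membrane protein of mitochondria and the endoplasmic reticulum, lies at chr1:27992572-27998729 on the minus strand. It had 11.98, 9.61 and 12.1 CPM in the Control replicates and 12.4, 11.7 and 9.57 CPM in the CBX1 replicates. The CBX1_W42A replicates had 11.6, 7.89 and 15.3 CPM, so that this group held both the lowest and the highest library. All 3 groups overlapped. The log2 fold change was 0.02 (−0.34 to 0.38) for CBX1 against Control and 0.05 (−0.39 to 0.49) for CBX1_W42A against Control. It was −0.06 (−0.48 to 0.37) for CBX1 against CBX1_W42A, and all 3 intervals stayed within 0.75 of 0. Part of its reference transcripts, 10.7% of the 100-base stretches, is shared with the neighbouring LINC02574. In the annotation used for counting, 100% of the span of IFI6 was free of other genes of its strand.

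**Figure D4:**
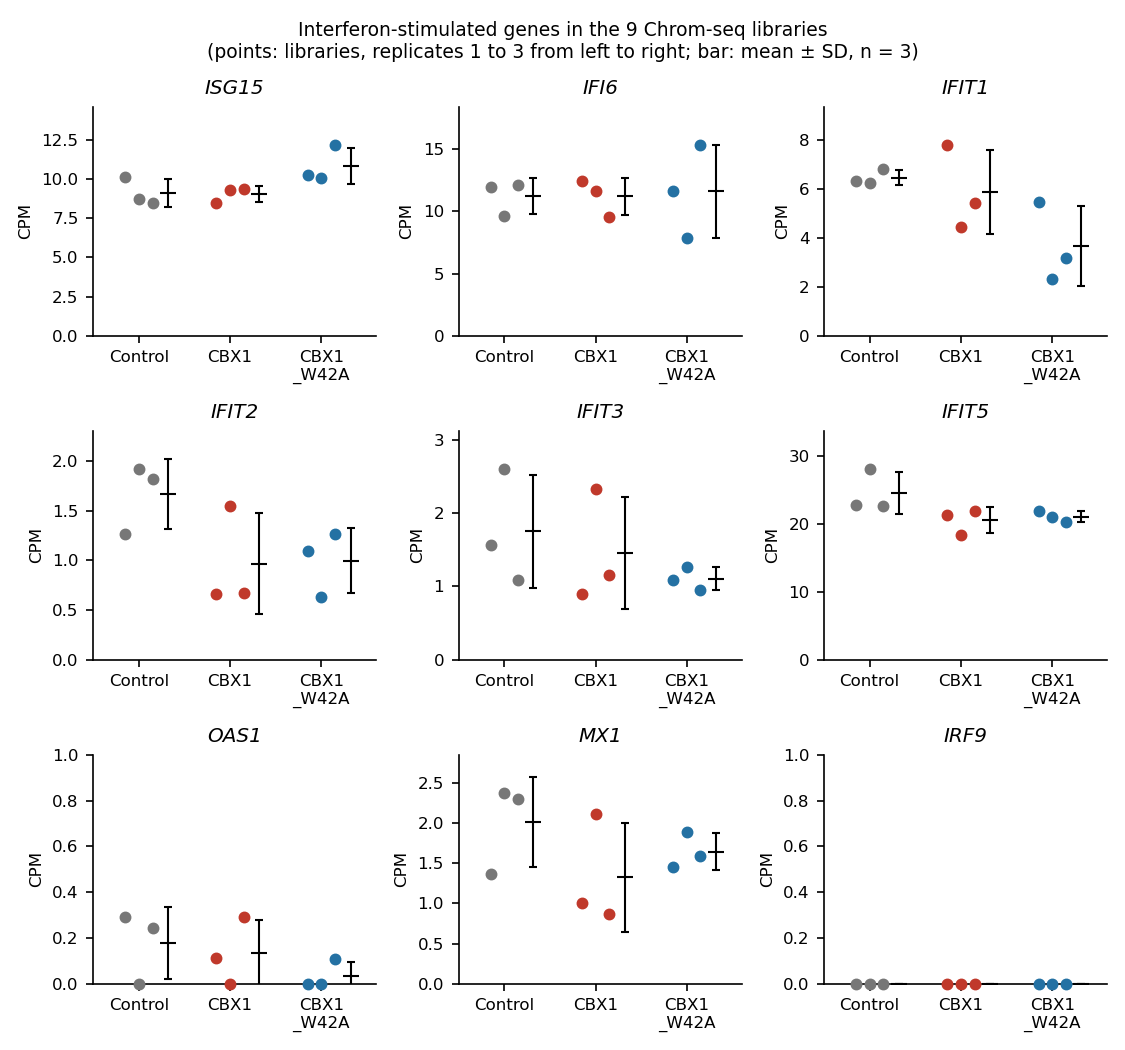
CPM of each of the 9 genes in the 9 libraries (points, replicates 1 to 3 from left to right in each group, linear axes from 0), with mean ± SD of 3 libraries beside them. The groups overlap in most panels. IFIT1 is lowest with CBX1_W42A, where 1 library has 5.46 CPM and the others 2.32 and 3.17, and IRF9 is at 0 throughout. Where the SD exceeds the mean, the bar is cut at 0.

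The 4 IFIT genes, whose proteins bind viral RNA and hold back its translation, lie together on chromosome 10. IFIT2 is at chr10:91061712-91069033, IFIT3 at chr10:91087651-91100728, IFIT1 at chr10:91152303-91163745 and IFIT5 at chr10:91174343-91180758, all on the plus strand. IFIT1, IFIT2 and IFIT3 overlap LIPA, a gene of the other strand. They nevertheless had counts, as did 698 of the 997 protein-coding genes that lie inside a gene of the other strand alone, so strand was used in the counting. None of the 100-base stretches of IFIT1, IFIT3 or IFIT5 occurs in another gene of the reference transcripts. For IFIT2 6.28% of them occur in ENSG00000232110, an overlapping locus.

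IFIT1, which recognizes RNA caps that lack a methyl group, had 6.33, 6.22 and 6.79 CPM in the Control replicates. The CBX1 replicates had 7.78, 4.44 and 5.41 CPM, and the CBX1_W42A replicates had 5.46, 2.32 and 3.17 CPM. The CBX1_W42A libraries were all below the Control libraries, and CBX1 overlapped both groups. For CBX1_W42A against Control the log2 fold change was −0.80 (standard error 0.28, 95% interval −1.39 to −0.22), or 0.574-fold. It did not pass the adjustment (adjusted p = 0.124 in edgeR), and over the alternatives its adjusted p ranged from 0.0535 to 0.298. This value rested partly on single libraries. Without CBX1_W42A replicate 1 the log2 fold change was −1.23 and without replicate 2 it was −0.56. For CBX1 against CBX1_W42A it was 0.66 (0.05 to 1.28, adjusted p = 0.258 in edgeR). For CBX1 against Control it was −0.11 (−0.59 to 0.37), an interval that stayed within 0.75 of 0.

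IFIT5, which binds RNA with a triphosphate end, was the IFIT gene with the most counts, from 166 to 248 per library. The Control replicates had 22.8, 28.03 and 22.6 CPM. The CBX1 replicates had 21.3, 18.4 and 21.8 CPM, and the CBX1_W42A replicates had 21.9, 20.9 and 20.3 CPM. Both reader groups lay below all Control libraries, by a narrow margin, and overlapped each other. The log2 fold change was −0.22 (−0.50 to 0.05, adjusted p = 0.246 in edgeR) for CBX1 and −0.21 (−0.50 to 0.08, adjusted p = 0.423 in edgeR) for CBX1_W42A, each against the same Control libraries. It was −0.04 (−0.32 to 0.25) between the readers. With standard errors of 0.13 to 0.14, IFIT5 was the most precisely measured of the 7, and the intervals excluded a change of 0.75.

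IFIT2 and IFIT3, partners of IFIT1 in a complex, had few counts, 6 to 17 and 8 to 23 per library. IFIT2 had 1.27, 1.92 and 1.82 CPM in the Control replicates, 0.667, 1.55 and 0.677 CPM with CBX1 and 1.09, 0.631 and 1.27 CPM with CBX1_W42A. The Control libraries tended to be the higher ones, but both reader groups reached into their range. Its log2 fold change was −0.76 for CBX1 against Control (−1.74 to 0.23, adjusted p = 0.267 in edgeR), −0.72 for CBX1_W42A against Control (−1.66 to 0.22) and −0.06 between the readers (−1.17 to 1.04). IFIT3 had 1.56, 2.599 and 1.09 CPM in the Control replicates, 0.889, 2.33 and 1.16 CPM with CBX1 and 1.09, 1.26 and 0.952 CPM with CBX1_W42A, with overlap in all comparisons. Its log2 fold change was −0.24 (−1.21 to 0.72), −0.66 (−1.59 to 0.27) and 0.39 (−0.58 to 1.37) in the same order. For both genes the interval reached past 0.75 on at least 1 side in each comparison, so a change at the threshold in that direction was neither called nor excluded.

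MX1, a dynamin-like GTPase that blocks the nucleocapsids of RNA viruses, lies at chr21:42792231-42831141 on the plus strand. It had 1.36, 2.37 and 2.31 CPM in the Control replicates, 1.00, 2.11 and 0.870 CPM with CBX1 and 1.46, 1.89 and 1.59 CPM with CBX1_W42A. The groups overlapped. Its log2 fold change was −0.57 (−1.497 to 0.35) with CBX1 and −0.28 (−1.08 to 0.52) with CBX1_W42A, each against Control, and −0.32 (−1.23 to 0.59) between the readers. It had 9 to 21 counts per library, and the intervals did not exclude a depletion at the threshold.

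Added over the 9 genes, the level was 55.5 to 59.5 CPM in the Control libraries, 49.2 to 52.7 CPM with CBX1 and 45.0 to 54.9 CPM with CBX1_W42A, with IFIT5 the largest part. In a captured pool, less RNA per cell, fewer cells that contain the RNA and less labeling of it cannot be told apart. Across the 9 libraries the 7 genes did not move as a block. The correlation of their log2 CPM ran from −0.667, between ISG15 and IFIT1, to 0.745, between IFIT2 and MX1, a description over 9 libraries of 3 groups in which genes of few counts carry much counting error. The mean standardized log2 CPM profile of the 7 was compared with 15962 other genes averaging 10 counts or more. Those most like it over the same 9 libraries were WIBG (r = 0.954), TSSC4 (r = 0.945), USP6NL (r = 0.943), CCDC137 (r = 0.941) and FBLL1 (r = 0.927). They were picked for the highest r among all of these genes, so the values are a description. A link to the 7 was not tested.

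The rest of the pathway was taken from lists of its genes. Of 13 interferon and chemokine genes, 7 had any count, and none of the interferons was tested. IFNB1, the type I interferon made first on sensing, had 0 counts in every library. CXCL10 had 3 counts in all and IFNL1 had 2, and CCL5 alone was tested, with 38 counts, in the comparisons with CBX1_W42A, where it was not called. IFNE, also at 0, lies inside a gene of its strand, so its zero does not give its level.

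Of 16 nucleic acid sensors and adaptors, 14 were tested. In CBX1 against Control 1 was enriched, MB21D1, and 1 was depleted, IFIH1, beside 7.06% and 0.340% of all genes, and in the other comparisons 0 were called. MB21D1 encodes cGAS, the sensor of cytosolic DNA. It had 0.390, 1.02 and 0.364 CPM in the Control replicates, 2.67, 2.22 and 2.22 CPM with CBX1 and 1.73, 1.79 and 1.16 CPM with CBX1_W42A. It rested on 3 to 24 counts per library in Control and CBX1, and all CBX1 libraries lay above all Control libraries. The log2 fold change was 2.01 (1.026 to 3.002, adjusted p = 0.00688 in edgeR) for CBX1 and 1.40 (0.30 to 2.50, adjusted p = 0.151 in edgeR) for CBX1_W42A, against the same Control libraries. Between the readers it was 0.59 (−0.16 to 1.34, adjusted p = 0.44 in edgeR). IFIH1 encodes MDA5, a sensor of double-stranded RNA. It had 7.99, 10.8 and 7.52 CPM in the Control replicates, 3.67, 4.33 and 4.93 CPM with CBX1 and 5.73, 5.68 and 4.97 CPM with CBX1_W42A. Both reader groups lay below Control. The log2 fold change was −0.99 (−1.46 to −0.53, adjusted p = 0.0051 in edgeR) for CBX1 and −0.68 (−1.14 to −0.23, adjusted p = 0.0934 in edgeR) for CBX1_W42A. TMEM173, which encodes STING, the adaptor of cGAS, had a log2 fold change of 0.40 (−0.54 to 1.33) with CBX1, on 6 to 25 counts per library in Control and CBX1. IRF3 and TBK1 had the highest levels of this list, 106 and 11.2 CPM per kb. TBK1, the kinase that activates IRF3, had a log2 fold change of −0.39 with CBX1 (−0.63 to −0.14, adjusted p = 0.0258 in edgeR), short of the fold threshold, and its adjusted p was above 0.05 in several alternatives, 0.0908 without CBX1 replicate 2 being the highest.

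All 16 receptors and signal transducers were tested, and 0 were called in any comparison. Of all genes, 7.06%, 0.974% and 0.795% were enriched in the 3 comparisons and 0.340%, 0.0214% and 0.201% were depleted. At an adjusted p below 0.05 with any fold change in edgeR, 2 fell with CBX1 against Control, beside 20.1% of all genes. With CBX1_W42A against Control 1 fell, beside 2.62% of all genes. Between the readers 0 fell, beside 2.24%, and 0 rose in any comparison. STAT2, a subunit of ISGF3, had log2 fold changes against Control of 0.07 (−0.19 to 0.32) with CBX1 and −0.18 (−0.44 to 0.08) with CBX1_W42A, with overlap. IFNGR1 and TYK2 had the highest levels of this list, 38.1 and 25.4 CPM per kb.

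Among 52 other interferon-stimulated genes, 40 were tested in each comparison with Control and 41 between the readers. In CBX1 against Control 3 were enriched and 1 was depleted, and at an adjusted p below 0.05 with any fold change 4 rose and 9 fell. Of all genes tested, 7.06% were enriched, 0.340% were depleted and 20.1% had such a p. The median of the 40 was −0.17. In CBX1_W42A against Control 2 were enriched, beside 0.974% of all genes, and 0 depleted, with a median of −0.17, and between the readers 0 were called, with a median of −0.06. IFI27, a mitochondrial relative of IFI6, had 6.72, 6.22 and 10.6 CPM in the Control replicates, 22.8, 24.3 and 23.1 CPM with CBX1 and 13.5, 14.5 and 16.0 CPM with CBX1_W42A. The 3 groups did not overlap. Its log2 fold change was 1.61 (1.24 to 1.99, adjusted p = 2.53e-05 in edgeR) with CBX1 and 0.91 (0.48 to 1.34, adjusted p = 0.0287 in edgeR) with CBX1_W42A. UBA7, the enzyme that activates ISG15 for conjugation, had 4.19, 3.73 and 3.76 CPM in the Control replicates, 9.78, 14.1 and 10.9 CPM with CBX1 and 7.55, 7.58 and 9.20 CPM with CBX1_W42A. Its groups were also separate, with log2 fold changes of 1.59 (1.16 to 2.03, adjusted p = 0.000111 in edgeR) and 1.05 (0.58 to 1.53, adjusted p = 0.0235 in edgeR). The ligase HERC5, which conjugates ISG15, went the other way. It had 55.0, 48.7 and 55.1 CPM in the Control replicates, 30.2, 27.8 and 28.9 CPM with CBX1 and 35.1, 41.7 and 39.3 CPM with CBX1_W42A, and its log2 fold change with CBX1 was −0.84 (−1.07 to −0.62, adjusted p = 8.07e-05 in edgeR). With CBX1_W42A it was −0.45 (−0.70 to −0.20, adjusted p = 0.0478 in edgeR), short of the fold threshold, and the adjusted p rose to between 0.058 and 0.163 when any 1 library was left out. ISG20, an RNA exonuclease, had 2.73, 4.75 and 4.61 CPM in the Control replicates and 8.001, 8.76 and 6.38 CPM with CBX1. The CBX1_W42A replicates had 4.09, 6.95 and 7.72 CPM. Its log2 fold change with CBX1_W42A against Control was 0.64 (0.04 to 1.24, adjusted p = 0.228 in edgeR). Between the readers it was 0.31 (−0.18 to 0.80, adjusted p = 0.555 in edgeR). With CBX1 against Control it was 0.97 (0.46 to 1.49, adjusted p = 0.011 in edgeR). Without Control replicate 1 it was 0.73 (adjusted p = 0.0524 in edgeR), no longer a call. B2M and ADAR had the highest levels of the list, 110.2 and 43.96 CPM per kb.

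**Figure D5:**
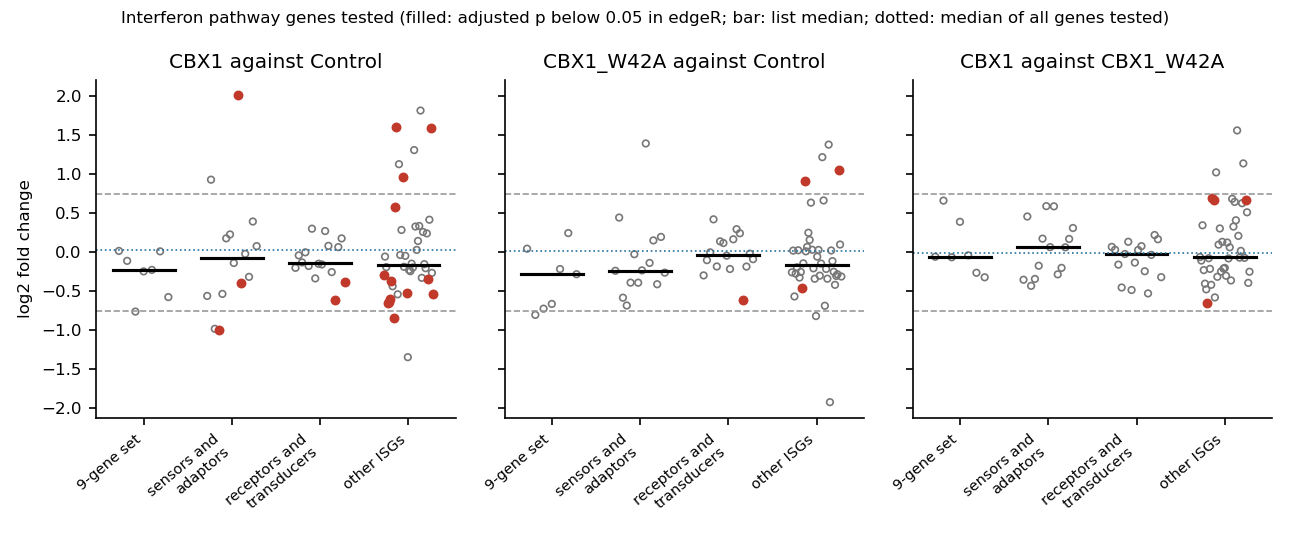
Log2 fold changes of the genes tested in the 9-gene set and in 3 lists of the interferon pathway, in the 3 comparisons, with the list median as a bar, the median of all genes tested as a dotted line and the threshold of 0.75 dashed. Filled red points passed an adjusted p of 0.05 in edgeR. None lies in the 9-gene set. In the first panel the filled points of the sensors and of the other interferon-stimulated genes lie on both sides of 0. Those of the receptors and transducers lie below 0.

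The calls with CBX1_W42A depended on single libraries. Adjusted p for IFI27 passed 0.05 without Control replicate 1 (0.102), Control replicate 2 (0.0713), CBX1_W42A replicate 2 (0.065) or CBX1_W42A replicate 3 (0.0958) in edgeR. For UBA7 it did so without Control replicate 1 (0.0741), Control replicate 2 (0.0554), Control replicate 3 (0.0684) or CBX1_W42A replicate 3 (0.0893). The calls of IFIH1, IFI27, UBA7 and HERC5 with CBX1 held at the main thresholds in every alternative fit run. That of MB21D1 held in every one in which it was tested. With a minimum of 10 counts in every library MB21D1 was not tested. The calls of single pathway genes were not repeated at the other thresholds. In the main fit IFIH1 (−0.99) and HERC5 (−0.84) fell short of a log2 fold change of 1 in either direction. IFI27 (1.61), UBA7 (1.59) and MB21D1 (2.01) exceeded it. The summed level of the receptors and transducers was 590 to 602 CPM in Control, 531 to 551 CPM with CBX1 and 534 to 558 CPM with CBX1_W42A. That of the other interferon-stimulated genes was 1235 to 1271, 1070 to 1105 and 1075 to 1135 CPM. Both sums were lower with either reader in every library. The sum of the sensors and adaptors overlapped, at 288 to 317 CPM in Control, 287 to 335 CPM with CBX1 and 261 to 305 CPM with CBX1_W42A. Abundant genes weigh most in a sum, such as ADAR with 330, 265 and 276 CPM on average in the same order. None of these sums was tested.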

How the data were processed

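The data were raw read-pair counts per gene for 9 Chrom-seq libraries. The authors trimmed reads with fastp (0.23.1), aligned them to hg19 with HISAT2 (2.1.0) and counted them with featureCounts (2.0.1) on GENCODE v19, and deposited the counts without normalization. Strand and overlap settings are not given in the sources used here and were read from the counts. Groups and replicate numbers came from the sample labels, and 0 sample columns were left out.

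Counts were analysed in R (4.3.3) with edgeR (4.0.16), limma (3.58.1) and DESeq2 (1.42.0; the submitters' notes name 1.34.0), and in Python (3.11.15) with pandas (2.3.3), numpy (2.4.6) and matplotlib (3.10.9). TMM factors for printed CPM came from all 9 libraries, and those of each test from its 6. A gene was too low to judge when untested or below a mean of 10 counts in both groups. Thresholds, filter and 2-group fits follow the study's methods, in which DESeq2 was the test. The test was checked on simulated data. The 9 genes, the lists and the tests were chosen with earlier results of these data known. All 9 genes were named. Pathway genes were named if called in any comparison, if among the 2 highest of a list per kb, or if MB21D1, TMEM173, STAT2 or IFNB1, and some genes of the lists are not reported here. Exon lengths came from the canonical transcripts of GENCODE v44 lifted to GRCh37, and the 100-base comparison from its transcripts. Profiles used log2 CPM with a prior count of 2. Alternatives were DESeq2, 3 other scalings, 3 other filters, all 9 libraries in 1 fit, a replicate block, other thresholds and leaving out each library. For pathway genes they were added after the calls were seen, without the other thresholds. Replicates of a group differed beyond sampling noise (chi-square per degree of freedom 4.65 to 11.4).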

Additional observations from a re-analysis of the deposited data

Results flagged for a closer look

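The response to the reader differed between CBX1 and CBX1_W42A for 4 of the 41 genes tested in the list of other interferon-stimulated genes. This was at an adjusted p below 0.05 in edgeR's quasi-likelihood test of the 2 readers against each other. The same held for 0 of the 7 members tested and for 2.24% of all genes. HERC6, DTX3L and TRIM5 were named after their values were seen. None reached the fold threshold of 0.75. The log2 fold change of CBX1 against CBX1_W42A was 0.67 for IFI27 (adjusted p = 0.0126), 0.69 for HERC6 (adjusted p = 0.0391), −0.65 for DTX3L (adjusted p = 0.0259) and 0.67 for TRIM5 (adjusted p = 0.0476). In all 4 the libraries of the readers did not overlap, which held for 21.3% of all genes. Since the 4 were picked by the test of these same libraries, this adds no support. Each lost an adjusted p below 0.05 when single libraries were left out, with adjusted p in edgeR of up to 0.0586 for IFI27 (without CBX1 replicate 3), 0.169 for HERC6 (without CBX1 replicate 1), 0.114 for DTX3L (without CBX1 replicate 3) and 0.174 for TRIM5 (without CBX1 replicate 3).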

How the results depend on the processing

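The count of members called was 0 in all 3 comparisons under each of the 17 alternatives run per comparison, DESeq2 and the fits without 1 library included. Of 307 alternative values of single members, 0 had an adjusted p below 0.05 in edgeR or DESeq2 and the smallest was 0.0535. Directions of values near 0 were not stable. Nor were those of IFIT3, which in the main fit was −0.24 in CBX1 against Control and 0.39 in CBX1 against CBX1_W42A. With all 9 libraries in one fit ISG15 in CBX1 against Control was −0.00474, and with library size alone IFIT5 in CBX1 against CBX1_W42A was 0.00379. Leaving out 1 library, log2 fold changes for CBX1 against Control ran from −0.0289 to 0.0934 for ISG15, −0.0898 to 0.129 for IFI6, −0.352 to 0.0515 for IFIT1 and −0.73 to 0.13 for IFIT3. For CBX1_W42A against Control IFI6 ran from −0.19 to 0.26. For CBX1 against CBX1_W42A the ranges were −0.25 to 0.19 for IFI6, −0.56 to 0.15 for IFIT2, −0.10 to 0.64 for IFIT3 and −0.0844 to 0.0368 for IFIT5. The cause was not tested.

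Same-numbered libraries of different groups had correlations of deviations from −0.215 to 0.168, and other-numbered ones from −0.283 to 0.224. Between the 2 readers the same-numbered values were 0.0822 to 0.168 and the others −0.193 to 0.0863. Whether the replicate numbers pair the libraries cannot be told from these values. With the replicate block, members called stayed at 0 in each comparison. Over all genes the replicate block gave 1021 enriched and 46 depleted for CBX1 against Control, 201 and 4 for CBX1_W42A against Control, and 250 and 66 for CBX1 against CBX1_W42A. Upper-quartile factors moved the median of all genes for CBX1 against Control from 0.03 to 0.11, library size alone to 0.12 and no filter to 0.12. IFIT2, IFIT3 and MX1 had 6 to 23 counts per library and the widest intervals.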
